A study of Mus musculus with 9 samples.

Results

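The genes described are the 10 of the insulin-like growth factor 1 (IGF1) system that were listed by name: the ligand *Igf1*, its receptor *Igf1r*, the acid-labile subunit *Igfals*, the IGF binding proteins *Igfbp2* to *Igfbp7*, and *Pappa*, a protease that cuts binding proteins. They were found by exact match of the gene symbol, and all 10 were present among the 24356 symbols of every library. RNA was sequenced from brown adipose tissue, the heat-producing fat depot, of 4 mice labelled KO (2 females and 2 males) and 5 labelled WT (3 females and 2 males). KO mice carry a targeted disruption of *Ghrh*, the gene of the hypothalamic hormone that drives growth hormone release. The disruption is present in the whole body, so brown fat cells are not its only site. WT mice were their littermates, and both groups shared a mixed C57BL6 and 129SV background, standard chow without restriction and the same housing. The ages of the mice are not given in the sources used here. Levels are in FPKM as deposited by the authors, fragments per transcript length and library size, a scale that can be compared between genes.

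Growth hormone acts through its receptor, JAK2 and STAT5 to switch on *Igf1* in liver and in many other tissues, adipose tissue included. IGF1 signals through the receptor tyrosine kinase encoded by *Igf1r*. In blood, most IGF1 travels in a complex with a binding protein (IGFBP3 or IGFBP5) and the acid-labile subunit, which prolongs its life. In tissues, binding proteins hold IGF1 away from its receptor or store it in the matrix, and proteases such as PAPP-A release it.

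The targeted gene was above 0 only in libraries labelled KO. *Ghrh* (chr2:157329497-157347506, minus strand) was listed at 0 FPKM in every WT library. KO females held 0.846 and 0.233 FPKM and KO males 0.799 and 0.470 FPKM (two-sided exact permutation p = 0.00794, on log2(FPKM + 0.1)). The source of these reads was not tested. *Cish* and *Igfals*, both known targets of growth hormone and both called by the test, were lower in the libraries labelled KO (values below). For *Socs2*, of the growth hormone signalling list, KO male 1 (4.02 FPKM) lay within the WT range of 1.52 to 5.61 FPKM. The other KO libraries, at 0.858 to 1.46 FPKM, lay below it, and *Socs2* did not pass (limma adjusted p = 0.344). *Socs1* and *Socs3*, of the same list, differed by 0.24 and 0.00053 on the log2 scale, and neither was called. All directions compare the libraries as labelled. The library labelled KO male 1 stood apart: its Spearman correlations with the others were 0.924 to 0.934, against 0.958 to 0.991 among the rest. Its lymphocyte markers summed to 156 FPKM, against 1.02 to 2.33 FPKM elsewhere, and its macrophage markers to 403 FPKM. In the other 3 KO libraries macrophage markers summed to 34.6, 24.6 and 29.1 FPKM, below every WT library (40.9 to 98.6 FPKM), and 1 of 6 was called lower over all libraries. All 9 brown adipocyte markers were above 0 in every library, summing to 6021 to 7842 FPKM in WT and 6400 to 8282 FPKM in KO. Skeletal muscle markers summed to 405 to 2002 FPKM in WT and 2347 to 10371 FPKM in KO. Of the 10, 7 were higher in every KO library than in any WT library, against 3.03% of all tested genes. By limma, 3 of the 10 were called higher. Mural cell markers summed to 117 to 124 FPKM in WT and 72.2 to 90.9 FPKM in KO (2 of 6 called lower), and fibroblast markers to 210 to 367 FPKM and 166 to 279 FPKM (3 of 9 called lower). White adipocyte markers summed to 81.4 to 323 FPKM in WT and 35.4 to 91.0 FPKM in KO (1 of 7 called lower), and their median log2 difference of -1.16 was the lowest of the 10 marker lists. Among all tested genes, 2.17% were called lower and 1.43% higher. The part of these markers in the values below was not tested.

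The binding proteins other than *Igfbp2* were the most abundant of the 10 genes. Over all 9 libraries the mean was highest for *Igfbp7*, at 81.4 FPKM, which placed it at percentile 96.4 of the 18933 genes above 0 in any library. *Igfbp4* (39.8 FPKM), *Igfbp5* (21.6 FPKM), *Igfbp6* (15.8 FPKM) and *Igfbp3* (7.52 FPKM) followed. *Igf1* (3.26 FPKM), *Igfals* (2.75 FPKM) and *Igf1r* (1.18 FPKM) came next, and *Pappa* (0.141 FPKM) and *Igfbp2* (0.0999 FPKM) were last, at percentiles 25.0 and 22.6. Each gene exceeded the next in this order in 8 or 9 of the 9 libraries, with 3 exceptions. *Igf1* exceeded *Igfals* in 6, *Igfals* exceeded *Igf1r* in 5, and *Pappa* exceeded *Igfbp2* in 6, so these neighbours could not be ordered over all libraries. The 5 libraries with *Igfals* above *Igf1r* were the 5 labelled WT.

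**Figure D1:**
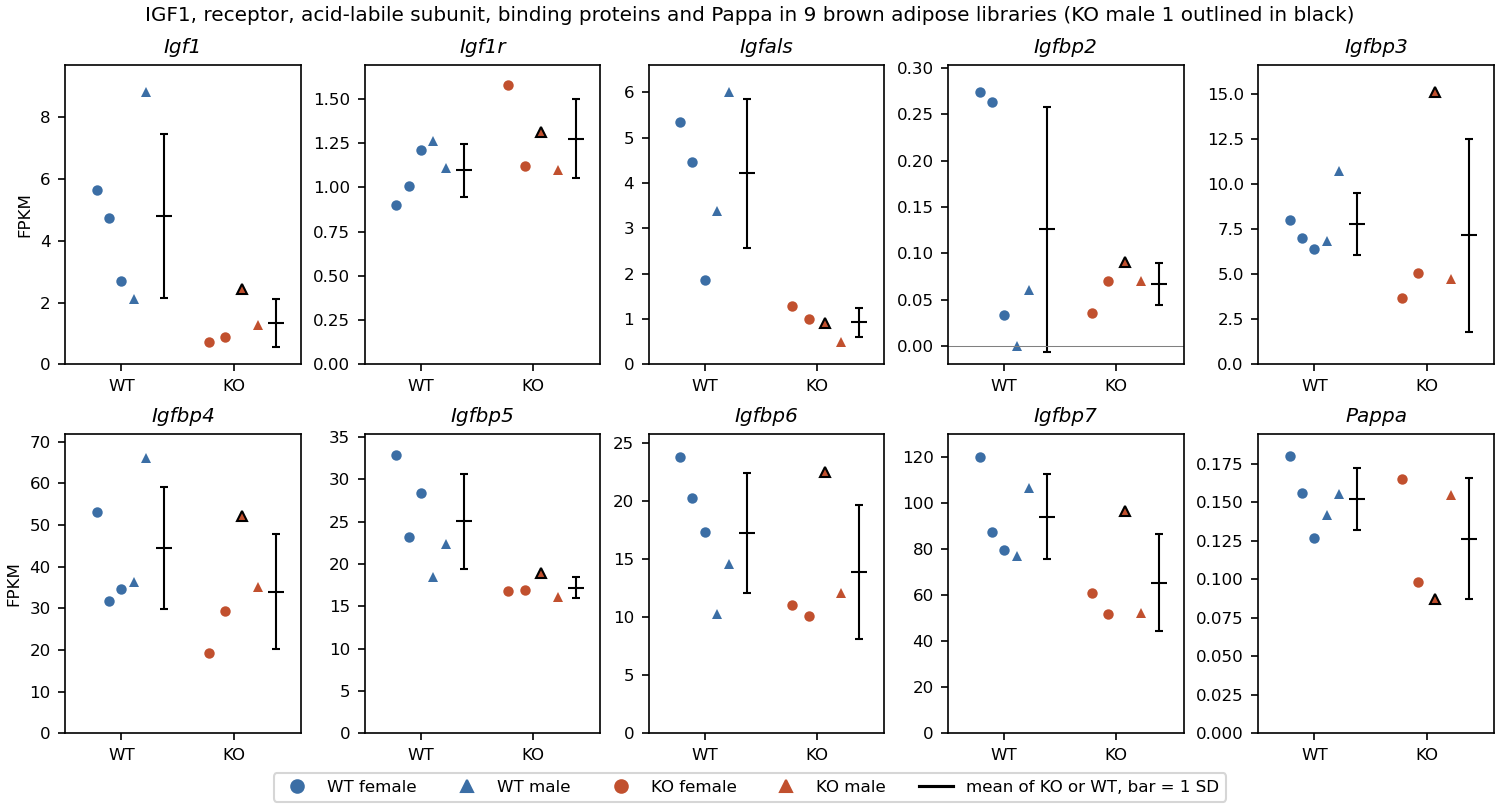
FPKM (vertical axes, linear, 1 panel per gene) of the 10 genes in each of the 9 libraries; points are libraries by group and the bars give mean ± SD of the KO (n = 4) and WT (n = 5) libraries. *Igfals* is the only gene of the 10 with every KO library (at most 1.29 FPKM) below every WT library (at least 1.87 FPKM).

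Among the 10 genes, *Igfals* fell in libraries labelled KO, and it was the only one to pass the test. *Igfals* encodes the acid-labile subunit, a leucine-rich glycoprotein best known as a product of liver. It lies at chr17:24865997-24882010 (GRCm38, plus strand). In WT libraries it measured 5.34, 4.46 and 1.87 FPKM in females and 3.39 and 6.01 FPKM in males. In KO libraries it measured 1.29 and 0.994 FPKM in females and 0.922 and 0.506 FPKM in males. Every KO library was below every WT library, and the WT mean (4.21 ± 1.64 FPKM, SD, n = 5) was 4.54 times the KO mean (0.929 ± 0.324 FPKM, n = 4). The log2 difference, KO minus WT averaged over the sexes, was -2.18 (SE 0.37, 95% interval -3.04 to -1.33, limma adjusted p = 0.0347; two-sided exact permutation p = 0.0159). In bulk tissue, fewer cells of a type and less RNA per cell cannot be told apart. Hepatocyte markers, of which 3 of 7 were above 0 in every library, summed to 2.99 to 6.59 FPKM in WT and 2.78 to 5.70 FPKM in KO, and these ranges overlapped. Across 17 limma alternatives the adjusted p for *Igfals* ran from 0.0256 to 0.134 and was under 0.05 in 10. The highest was without KO female 1. It was also above 0.05 without KO female 2 (limma adjusted p = 0.103), WT female 1 (0.0739), WT female 2 (0.0886) or WT male 2 (0.0918), without the mean-variance trend (0.0680) and without the filter on genes at 0 (0.0542). The ordinary linear model gave an unadjusted p of 0.00414, under its threshold of 0.01 (7.54% of all genes), and an adjusted p of 0.104. The exact permutation p stayed between 0.0159 and 0.0286 in its 10 alternatives.

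STAT5, the factor activated by the growth hormone receptor, is known to bind the palindrome TTCNNNGAA, and the upstream sequence of *Igfals* is shown because it holds this word. Windows from 250 bases before to 50 bases after each start site, from RefSeq on GRCm38.p6, were searched. The palindrome reads the same on both strands. It occurred in 2726 of 32851 windows (8.3%) and in at least 1 window of 2582 of 27025 genes (9.55%). Of the 10 genes, 9 had windows. The word was in 2 of their 12 windows (16.7%), both of *Igfals*, and so in 1 of the 9 genes (11.1%). Of its 3 windows, 2 held 1 match each, starting at position -236 and at position -58 from the respective start site. The stretches are on the plus strand, the first chr17:24877594-24877623 and the second chr17:24877981-24878230, and capitals mark the match. *Cish*, a growth hormone target described below, held 2 matches, at positions 1 and 12, and the 30 bases shown are chr9:107296654-107296683 on the plus strand. A match is a description of the letters only, and binding was not measured.
Igfals, first window: tgccgatctataatTTCTCAGAAaagaggc
Igfals, second window: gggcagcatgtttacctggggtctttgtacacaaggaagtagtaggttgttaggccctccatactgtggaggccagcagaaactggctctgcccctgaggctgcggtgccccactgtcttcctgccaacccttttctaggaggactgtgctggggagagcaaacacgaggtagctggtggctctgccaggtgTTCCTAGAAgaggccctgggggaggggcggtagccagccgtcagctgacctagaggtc
Cish: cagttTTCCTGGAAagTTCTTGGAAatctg

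The ligand *Igf1* (chr10:87858265-87937042, plus strand) was below every WT library in 3 of the 4 KO libraries, and the groups overlapped. It measured 5.66, 4.75 and 2.68 FPKM in WT females and 2.13 and 8.80 FPKM in WT males. It measured 0.713 and 0.892 FPKM in KO females and 2.46 and 1.28 FPKM in KO males. The overlap came from KO male 1, which lay above WT male 1. The log2 difference was -1.84 with a 95% interval of -2.88 to -0.79 (limma adjusted p = 0.0661; two-sided exact permutation p = 0.0317), so it did not pass the adjusted threshold. Without WT male 1 it passed, at -2.35 (limma adjusted p = 0.0156, with 5.56% of all genes called), and without KO female 1 the adjusted p was 0.214. The exact p was between 0.0536 and 0.0571 in 7 of the 9 analyses that left out 1 library. *Igf1os*, an antisense gene, overlaps *Igf1* over 5117 bases. The strand of the libraries is not stated, so reads from the overlap cannot be told apart.

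The related ligand *Igf2* (chr7:142650766-142666816), a fetal growth factor, went the other way. It measured 4.42 to 6.10 FPKM in WT, 24.9 and 20.2 FPKM in KO females and 12.1 and 10.7 FPKM in KO males. Averaged over the sexes it rose by 1.67 on the log2 scale (SE 0.12, limma adjusted p = 0.00356). Leaving out single libraries, the rise was 1.95 to 2.26 in females and 1.15 to 1.31 in males. The sex-by-genotype interaction was not called for *Igf2*, with 0% of all genes called. The ratio of *Igf2* to *Igf1* was 0.555 to 2.27 in WT libraries and 4.91 to 34.9 in KO libraries, with no overlap and the highest value in KO female 1. The sum of both ligands was 6.95 to 13.7 FPKM in WT and 12.0 to 25.6 FPKM in KO, and the groups overlapped through WT male 2 and KO male 2. *Gm49394* overlaps nearly the whole of *Igf2* on the same strand, so their reads may be shared.

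The receptor *Igf1r* (chr7:67952827-68233668, plus strand) did not pass the test. It measured 0.898, 1.01 and 1.21 FPKM in WT females, 1.26 and 1.11 FPKM in WT males, 1.57 and 1.12 FPKM in KO females and 1.31 and 1.10 FPKM in KO males. The groups overlapped in part, with the single highest level in KO female 1. KO female 1 and KO male 1 were above every WT library, and WT female 1 and WT female 2 were below every KO library. KO minus WT was 0.19 on the log2 scale (95% interval -0.22 to 0.60, limma adjusted p = 0.628; two-sided exact permutation p = 0.198). The level of *Igf1* per *Igf1r* was 1.68 to 7.95 in WT and 0.453 to 1.87 in KO, and overlapped only between KO male 1 and WT male 1.

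**Figure D2:**
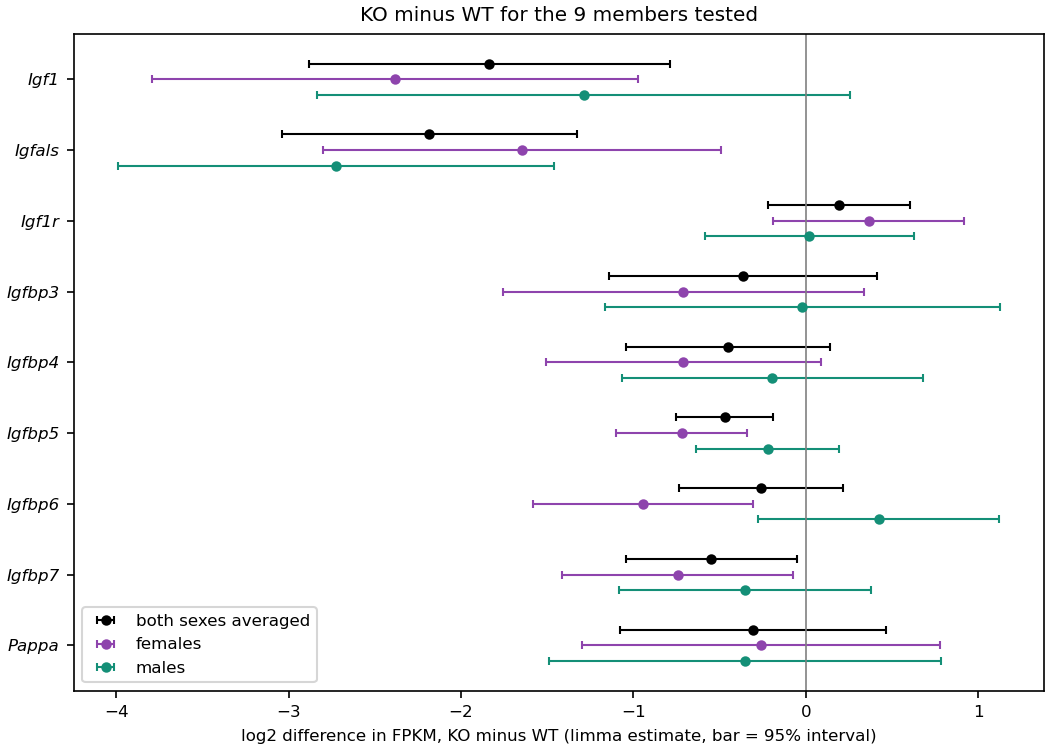
Log2 difference in FPKM, KO minus WT (horizontal axis), for the 9 tested genes over both sexes, in females and in males; points are estimates and bars 95% intervals from limma. *Igfals* (-2.18) is the only gene called over both sexes, and the male estimate of *Igfbp6* (0.42) lies on the other side of 0 from its female estimate (-0.94).

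Of the 10 genes, 9 were above 0 in every library and could be tested. Over both sexes 1 of 9 was called lower and 0 higher. Among all 14675 tested genes, 3.6% were called, 2.17% lower and 1.43% higher. The direction was below 0 for 8 of the 9 genes, against 62.5% of all genes, and the median log2 difference was -0.45, against -0.07 over all genes. At an unadjusted p under 0.05 there were 4 of the 9 (*Igf1*, *Igfals*, *Igfbp5* and *Igfbp7*), against 20.2% of all genes. Every KO library lay below every WT library for 1 of the 9, against 6.04% of all genes, and above for 0, against 3.03% (9.07% in either direction).

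None of the 5 binding proteins tested passed over both sexes. *Igfbp5* (chr1:72857932-72874884, minus strand), which binds matrix and has IGF-independent actions, came nearest. It measured 32.8, 23.2 and 28.4 FPKM in WT females and 18.4 and 22.4 FPKM in WT males. KO libraries were close together, at 16.8 and 17.0 FPKM in females and 19.0 and 16.1 FPKM in males. Between the groups, KO male 1 and WT male 1 crossed. Their log2 difference from WT was -0.47 (95% interval -0.75 to -0.19, limma adjusted p = 0.0745; two-sided exact permutation p = 0.0238). The exact p was 0.0536 to 0.0714 without any 1 library other than WT male 1.

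*Igfbp7* (chr5:77349240-77408041, minus strand), a vascular and matrix protein that binds IGFs only weakly, measured 120, 87.4 and 79.6 FPKM in WT females and 77.1 and 107 FPKM in WT males. It measured 61.0 and 51.9 FPKM in KO females and 96.5 and 52.2 FPKM in KO males. KO male 1 was inside the WT range and the other 3 were below it. KO minus WT was -0.55 on the log2 scale (95% interval -1.04 to -0.05, limma adjusted p = 0.203; two-sided exact permutation p = 0.0635). Without KO male 1 the limma estimate was -0.77. The difference in mean log2 FPKM was then -0.76 (exact permutation p = 0.0179, the smallest possible with 56 assignments). Every remaining KO library was then below every WT library, as for 13.5% of all genes. The genes *Polr2b* and *Gm34648* overlap *Igfbp7* on the other strand, *Polr2b* over only 85 bases with a log2 difference of 0.01.

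*Igfbp3* (chr11:7206086-7213923, minus strand), the main carrier of IGF1 in blood, measured 8.001, 7.004 and 6.38 FPKM in WT females and 6.86 and 10.7 FPKM in WT males. It measured 3.70 and 5.10 FPKM in KO females and 15.1 and 4.72 FPKM in KO males. KO male 1 held the highest level of all 9 libraries, and the other 3 KO libraries held the 3 lowest. The log2 difference was -0.37 (limma adjusted p = 0.626, two-sided exact permutation p = 0.476). The limma estimate became -0.79 without KO male 1 and 0.06 without KO male 2. Without KO male 1 the difference in mean log2 FPKM was -0.78 (exact permutation p = 0.0179, the smallest possible with 56 assignments). Every remaining KO library was then below every WT library, as for 13.5% of all genes.

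*Igfbp4* (chr11:99041244-99054392, plus strand), an inhibitor of IGF action and the substrate of PAPP-A, measured 31.8 to 66.1 FPKM in WT and 19.2 to 52.1 FPKM in KO. The log2 difference was -0.45 (95% interval -1.04 to 0.14, limma adjusted p = 0.381). *Igfbp6* (chr15:102144362-102149511, plus strand), which prefers IGF2, measured 10.3 to 23.8 FPKM in WT and 10.1 to 22.5 FPKM in KO, with KO male 1 again the highest KO library. Its log2 difference was -0.26 (95% interval -0.73 to 0.21, limma adjusted p = 0.555). For both genes the groups overlapped.

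*Igfbp2* (chr1:72824503-72852474, plus strand), a binding protein of many fetal and adult tissues, had the lowest mean of the 10. It measured 0.275, 0.263 and 0.0331 FPKM in WT females, 0 and 0.0602 FPKM in WT males, 0.0362 and 0.0708 FPKM in KO females and 0.0908 and 0.0707 FPKM in KO males. It was not in the fit because WT male 1 was at 0. On log2(FPKM + 0.1) the exact permutation p was 0.563, two-sided. It lies 5457 bases from *Igfbp5* on chromosome 1.

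**Figure D3:**
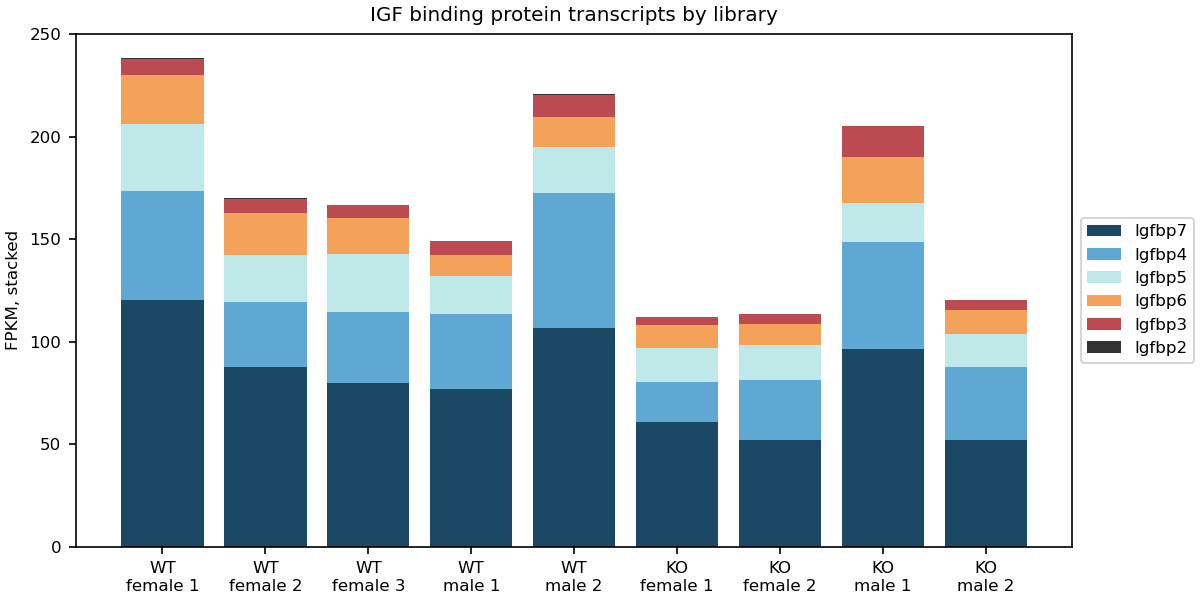
Summed FPKM of *Igfbp2* to *Igfbp7* (vertical axis, from 0), stacked by gene, in each of the 9 libraries (horizontal axis). KO male 1 reaches 205 FPKM while the other 3 KO libraries reach 112 to 120 FPKM, below every WT library (149 to 238 FPKM).

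Summed over *Igfbp2* to *Igfbp7*, WT libraries held 149 to 238 FPKM (189 ± 38.3, SD, n = 5) and KO libraries 112, 114, 205 and 120 FPKM (138 ± 45.2, n = 4). As shares of this sum, *Igfbp7* supplied 47.8% to 51.7% in WT and 43.4% to 54.6% in KO, *Igfbp4* 18.7% to 29.96% and 17.2% to 29.3%, and *Igfbp5* 10.2% to 17.0% and 9.23% to 15.1%. These ranges overlapped for every binding protein. KO male 1 held the highest share of *Igfbp3*, 7.37%, against 3.31% to 4.86% in the other 8 libraries.

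The protease *Pappa* (chr4:65124174-65357509, plus strand), pregnancy-associated plasma protein A, was low throughout, at 0.127 to 0.180 FPKM in WT and 0.0874 to 0.165 FPKM in KO. KO female 2 and KO male 1 were below all WT libraries and the other 2 KO libraries were inside their range. The log2 difference was -0.31 (95% interval -1.08 to 0.46, limma adjusted p = 0.695).

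Within each sex, 0 of the 9 genes were called by limma. In females 0.0204% of all genes were called, and at an unadjusted p under 0.05 there were 5 of the 9 (*Igf1*, *Igfals*, *Igfbp5*, *Igfbp6* and *Igfbp7*), against 12.7% of all genes. In males 0.0136% of all genes were called, and 1 of the 9 (*Igfals*) had an unadjusted p under 0.05, against 16.6% of all genes. The ordinary linear model at an unadjusted p under 0.01 gave 1 of the 9 in males (*Igfals*), against 5.29% of all genes. It gave 0 of the 9 in females, for the interaction and for sex, against 3.43%, 1.66% and 3.14% of all genes. The direction was below 0 for 8 of the 9 in females (60.2% of all genes) and 7 of the 9 in males (60.1%). *Igfals* differed by -1.65 in females (limma adjusted p = 0.256) and by -2.72 in males (limma adjusted p = 0.0814), and *Igf1* by -2.38 (limma adjusted p = 0.193) and -1.29 (limma adjusted p = 0.399). Exact permutation within a sex could not reach 0.05.

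The test of the sex-by-genotype interaction also called 0 of the 9, with 0% of all genes called, and 1 of the 9 (*Igfbp6*) had an unadjusted p under 0.05, against 7.01% of all genes. It was below 0 for 3 of the 9, against 51.3% of all genes. *Igfbp6* measured 23.8, 20.2 and 17.3 FPKM in WT females against 11.03 and 10.1 FPKM in KO females. It measured 10.3 and 14.6 FPKM in WT males against 22.5 and 12.1 FPKM in KO males. The log2 difference was -0.94 in females and 0.42 in males, and their difference was 1.37 (SE 0.41, limma adjusted p = 0.644). Without KO male 2, which leaves KO male 1 as the only KO male and assumes that it varies like the other groups, the difference was 1.81 (limma adjusted p = 0.0264), and 4.91% of all genes were called. Between males and females over both genotypes 0 of the 9 were called by limma, with 0.0136% of all genes called, and 1 of the 9 (*Igfbp4*) had an unadjusted p under 0.05, with a log2 difference of 0.59 (limma adjusted p = 0.477), against 10.4% of all genes. Males were below females for 4 of the 9, against 48.5% of all genes. Without KO male 2, 1 of the 9 was called higher in males (*Igfbp3*, 1.04, limma adjusted p = 0.0308), with 5.47% of all genes called.

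**Figure D4:**
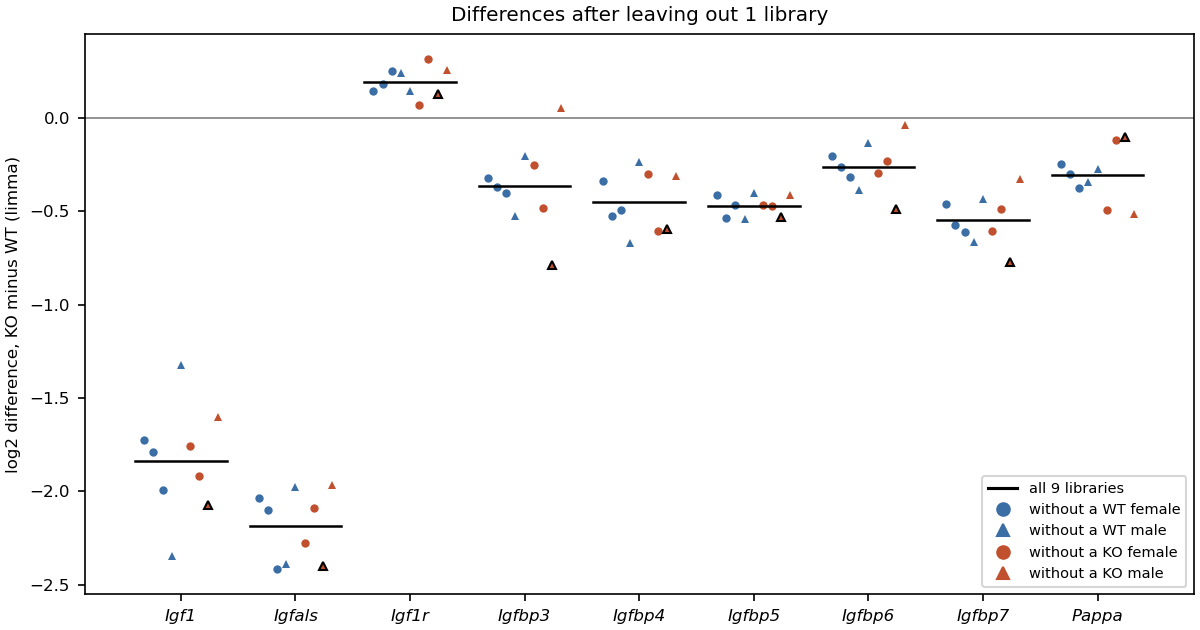
Log2 difference in FPKM, KO minus WT over both sexes (vertical axis), for the 9 tested genes (horizontal axis) with all libraries and leaving out each library in turn; the point without KO male 1 is outlined in black. *Igfals* stays between -2.41 and -1.97, whereas *Igfbp3* runs from -0.79 without KO male 1 to 0.06 without KO male 2.

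Leaving out KO male 1 removed the overlap for 4 further genes. Every remaining KO library was then below every WT library for 5 of the 9 genes (*Igf1*, *Igfals*, *Igfbp3*, *Igfbp5* and *Igfbp7*), against 13.5% of all genes. Without it 1 of the 9 (*Igfals*) was called lower and 0 higher, against 3.01% of all genes called and 2.25% called lower. Without WT male 1 there were 3 such genes (*Igf1*, *Igfals* and *Igfbp5*), against 8.93% of all genes, and without any other single library there was 1. This check was chosen after the values had been seen.

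Upstream of *Igf1*, the growth hormone receptor *Ghr* measured 97.3, 84.4 and 62.8 FPKM in WT females, 71.2 and 155 FPKM in WT males, 42.6 and 50.7 FPKM in KO females and 42.2 and 51.6 FPKM in KO males. The groups did not overlap, but the log2 difference of -0.98 did not pass (limma adjusted p = 0.0660). Leaving out single libraries gave -1.26 (without WT male 1) to -0.70. Of 17 limma alternatives *Ghr* passed in 1 only, without WT male 1, which leaves WT male 2 as the only WT male. *Cish* (chr9:107296026-107302784, plus strand), a feedback inhibitor that STAT5 switches on, measured 14.5, 19.1 and 9.52 FPKM in WT females and 6.31 and 16.8 FPKM in WT males. It measured 1.26 and 0.474 FPKM in KO females and 1.74 and 0.165 FPKM in KO males. The groups did not overlap, the WT mean was 14.5 times the KO mean, and *Cish* fell by 4.21 on the log2 scale (SE 0.71, limma adjusted p = 0.0347; two-sided exact permutation p = 0.00794). Its adjusted p was 0.0752 to 0.130 without either KO female, any 1 WT female or WT male 2, and above 0.05 without the trend (0.0692) or the filter (0.0507). *Cish* was 1 of 8 genes of growth hormone signalling called lower, against 2.17% of all genes. Of the 8, 0 were called higher, against 1.43% of all genes. The direction was below 0 for 4 of the 8, against 62.5% of all genes. The median log2 difference of the 8 was 8.1e-05, against -0.07 over all genes. The kinase *Jak2* differed by 0.10 and the factor *Stat5b* by 0.44 on the log2 scale (limma adjusted p = 0.831 and 0.0750). For *Jak2*, as for *Socs1* and *Socs3* above, KO male 1 held the highest level (8.48 FPKM). The other KO libraries held 3.80 to 4.48 FPKM of *Jak2* and WT libraries 4.18 to 5.10 FPKM. *Stat5b* was higher in every KO library (at least 13.2 FPKM) than in any WT library (at most 11.7 FPKM).

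**Figure D5:**
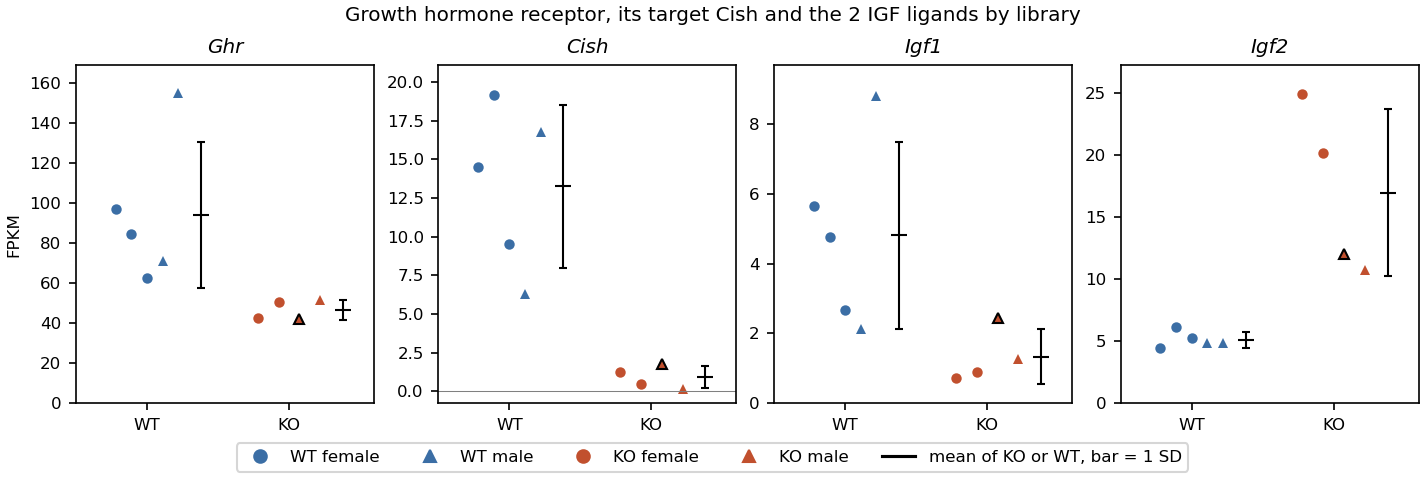
FPKM (vertical axes, linear) of *Ghr*, *Cish*, *Igf1* and *Igf2* in each of the 9 libraries, with mean ± SD of the KO (n = 4) and WT (n = 5) libraries. KO libraries lie below all WT libraries for *Ghr* (at most 51.6 against at least 62.8 FPKM) and *Cish*, above them for *Igf2*, and overlap them for *Igf1*.

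Other genes of the system were taken from lists. Among all tested genes, limma called 1.43% higher and 2.17% lower, and 20.2% had an unadjusted p under 0.05. The ordinary linear model gave 7.54% of all genes at an unadjusted p under 0.01. Of the other ligands, receptors and binding proteins, 1 of 5 tested was called higher (*Igf2*) and 0 lower. At an unadjusted p under 0.05 there were 3 of the 5 (*Igf2*, *Lrp1* and *Igf2r*), against 20.2% of all genes. *Lrp1* differed by -0.71 on the log2 scale (limma adjusted p = 0.0638). *Igf2r*, the receptor that clears IGF2, differed by -0.33 and *Insr*, the insulin receptor, by -0.21, and neither passed. *Igfbp1* was listed at 0 in all 9 libraries. Of the proteases and their inhibitors, 0 of 7 were called by limma, 0 by the ordinary linear model, and 1 had an unadjusted p under 0.05 (*Htra1*, a protease, -0.53, limma adjusted p = 0.0748). Of the convertases and mRNA-binding proteins, 1 of 5 was called lower and 0 higher. That gene was *Pcsk5*, a proprotein convertase, at 1.57, 1.82 and 2.09 FPKM in WT females and 1.79 and 2.40 FPKM in WT males. It measured 1.31 and 1.45 FPKM in KO females and 0.880 and 0.859 FPKM in KO males (log2 difference -0.83, SE 0.15, limma adjusted p = 0.0380). Its limma adjusted p was 0.0519 to 0.155 without any 1 library other than WT male 1 or KO male 2, and above 0.05 under 5 other settings, median centring (0.0634) among them. Downstream of the receptor, 0 of 29 genes were called by limma, 0 by the ordinary linear model, and 8 had an unadjusted p under 0.05, against 20.2% of all genes. Of these 29, 23 differed in the direction below 0, against 62.5% of all genes, with a median log2 difference of -0.09 against -0.07 over all genes. The 3 with the lowest p were *Pik3r1*, a regulatory subunit of PI3-kinase (-1.07, limma adjusted p = 0.0505), *Grb14*, an adaptor that restrains insulin signalling (-0.80, limma adjusted p = 0.0601), and *Irs2*, a docking protein of the receptor (-1.83, limma adjusted p = 0.0609). *Stat5b*, *Jak2*, *Socs1*, *Socs2*, *Socs3*, *Igf2r*, *Insr*, *Lrp1*, *Htra1*, *Pik3r1*, *Grb14* and *Irs2* were named after their values were seen.

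The pattern of *Igf1* over the 9 libraries was compared with 10876 genes of mean FPKM of at least 1, as a description. The libraries share genotype, sex and cell make-up, and no p is given. The 5 genes with the highest Pearson r of log2 FPKM were *Ctsk* (0.980, Spearman rho 0.983), *Fam20c* (0.975, rho 0.983), *Sfrp2* (0.972, rho 0.933), *Creb3l1* (0.969, rho 0.950) and *Srpx* (0.963, rho 0.967). Without the 2 libraries farthest from the median of *Igf1*, WT male 2 and KO female 1, these r were 0.971, 0.987, 0.939, 0.962 and 0.946. Cathepsin K (*Ctsk*) is a collagen-degrading protease and *Sfrp2* a secreted WNT modulator of stromal cells. Among the 10 genes, *Igfbp7* was most like *Igf1* (0.885, rho 0.883, and 0.911 without the same 2 libraries), and *Igfbp4* (0.803) and *Igfals* (0.801) followed. Without the same libraries these r were 0.511 and 0.806, below those of *Igfbp6* (0.825) and *Igfbp5* (0.818), so the order after *Igfbp7* rests on those libraries. *Igf1r* (-0.62, rho -0.58) ran the other way.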

How the data were processed

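Poly-A RNA of brown adipose tissue was sequenced as 2 × 50 base paired-end TruSeq libraries. The authors used bcl2fastq 1.8.4, TopHat 2.0.11 on mm10 (GRCm38) and Bowtie, and deposited FPKM per gene symbol, 1 table per library. Both HiSeq2000 and HiSeq2500 are named. The sum of FPKM per library was 380558 to 443569, and no 2 libraries were identical. Fragment counts are not used here, so counting error is unknown. Depth relative to WT female 1, estimated from values of 0.001 to 0.15 FPKM, was 0.915 to 1.14.

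Genes above 0 in all 9 libraries (14675 of 18933 above 0 in any) were tested by limma 3.58.1 (R 4.3.3) on log2 FPKM, with a mean per group of sex and genotype, a mean-variance trend and Benjamini-Hochberg adjustment over all genes at 0.05. Exact permutation tests used all 126 assignments of 4 and 5 libraries (smallest p 0.00794). The code was tested on simulated data. Libraries are numbered in accession order within groups. The labels give each library a separate number and do not say what it stands for. Alternatives were an ordinary linear model, no trend, an additive model, pseudocounts, filters, 2 normalizations and leaving out each library.

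Named genes were the 10 genes, *Ghrh*, *Igf2*, *Ghr*, every gene of the other lists with an adjusted p under 0.05, and the 5 genes most correlated with *Igf1*. The genes and lists were chosen with earlier results of these data known. Positions are from GENCODE M21 and promoter windows from RefSeq GRCm38.p6. Tables and figures used matplotlib 3.10.9, scipy 1.17.1, pandas 2.3.3 and numpy 2.4.6 in Python 3.11.15. Serum metabolomics are not analysed here.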

Additional observations from a re-analysis of the deposited data

Results flagged for a closer look

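Among 31 groups of 4 or 5 libraries tested on untransformed FPKM for a library far from the others, 3 had one. Chance gives about 1 in 20 for independent, normally distributed groups. All 3 were the library labelled KO male 1 within KO. It held 15.1 FPKM of *Igfbp3*, 22.5 FPKM of *Igfbp6* and 205 FPKM summed over *Igfbp2* to *Igfbp7*. That sum contains *Igfbp3* and *Igfbp6*, so the 3 are not independent. The gap to the nearest KO library was 0.878, 0.841 and 0.908 of the group's range. The same library had the high lymphocyte and macrophage markers given above, and their part in these values was not tested.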

How the results depend on the processing

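Of the 10 genes, 1 was called over both sexes, 0 with limma without its mean-variance trend, 0 without the filter, and 0 to 2 when leaving out single libraries. Over all genes, 529 were called (210 higher, 319 lower), 34 without the trend, 222 with median centring (130 higher, 92 lower), 170 without the filter and 1107 with the ordinary linear model at an unadjusted p under 0.01. Leaving out single libraries gave 8 (without KO female 1) to 1105 (without KO male 2). Quantile normalization gave 444 (228 higher, 216 lower). In males the ordinary linear model gave 1 of the 9. Leaving out single libraries gave 0 to 1 for sex (*Igfbp3*, 1.04) and 0 to 1 for the interaction (*Igfbp6*), both without KO male 2, where 803 (5.47%) and 721 (4.91%) of all genes were called, and 1 to 5 genes without overlap.

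Directions turned for these differences, none of them called. With quantile normalization *Igf1r* in males was -0.076, *Igfbp3* in males 0.0506 and *Pappa* in females 0.0315, and with log2(FPKM + 1) *Igfbp3* in males was 0.00116. Leaving out single libraries gave -0.79 to 0.055 for *Igfbp3* over both sexes. In males it gave -0.11 to 0.15 for *Igf1r*, -0.86 to 0.82 for *Igfbp3*, -0.62 to 0.23 for *Igfbp4*, -0.0262 to 0.87 for *Igfbp6*, -0.80 to 0.0899 for *Igfbp7* and -0.76 to 0.0583 for *Pappa*. In females it gave -0.63 to 0.11 for *Pappa*. The cause was not tested. No paired analysis was possible because the labels give no litter or other pairing of the animals, so litter is not in the fits. *Pappa* and *Igfbp2* had the lowest levels, and the number of fragments behind any value is unknown.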
